A study of Rattus norvegicus with 12 samples.

Results

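The genes described are 7 subunits of the GABA-A receptor, Gabra2, Gabra3, Gabra4, Gabra5, Gabrb1, Gabrb2 and Gabrd, taken by symbol from 17172 genes counted in every library. RNA sequencing was done on ventral dentate gyrus of male Sprague-Dawley rats, in 4 groups of 3 libraries. FRL vehicle came from the Flinders Resistant Line on tap water, and FSL vehicle from the Flinders Sensitive Line on tap water, a line bred for depression-like behaviour for which FRL is the control line. The other groups were FSL rats that drank L-acetyl-carnitine (LAC), 0.3% w/v, over 7 days, a dose near 210 mg/kg each day, called LAC non-responders or LAC responders. The sources used here give neither age, nor how many animals made a library, nor how response was defined. The p-values therefore measure the spread between these libraries. FSL vehicle rats could not be sorted by response, and a difference already there before LAC cannot be told apart from one that came after.

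GABA-A receptors are chloride channels opened by GABA, the main inhibitory transmitter of the brain, and each is assembled from several subunits, most often alpha, beta and gamma. GABA binds between alpha and beta subunits, and the type of alpha subunit sets much of the pharmacology, including the response to benzodiazepines. In dentate granule cells delta subunits join with alpha4 in receptors outside synapses, which carry a steady, tonic inhibition. Other receptors gather at synapses with the scaffold protein gephyrin.

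Levels are given as CPM, counts scaled to a common library total,, with TMM factors. They are not corrected for transcript length, so the levels of different genes are not ranked against each other. Each library held 5905387 to 8137618 counts in genes, and the members had between 231 and 2204 counts in each library, so all 7 passed the filter on low counts. A count of 3, the limit of detection used, corresponds to 0.368 to 0.511 CPM.

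Markers of cell types differed between libraries. Prox1, which defines dentate granule neurons, ranged from 51.6 to 129 CPM in 10 libraries. It was only 10.4 CPM in the FRL vehicle 2 library, and 9.19 CPM for responder 1. Tcf7l2, abundant in thalamus, stood at 156 CPM in responder 1 and at most 20.5 CPM elsewhere. The 10 choroid plexus markers, among them Ttr, summed to 7900 CPM in non-responder 1, 4710 CPM in FSL vehicle 1 and 648 CPM in FSL vehicle 3, against 135 to 231 CPM in the other 9 libraries. The 12 meningeal and fibroblast markers summed to 186 to 407 CPM in FRL vehicle, 314 to 3104 CPM in FSL vehicle, 471 to 700 CPM in non-responders and 103 to 267 CPM in responders, and 1 of the 12, Col1a2, is listed at 0 in every library. In bulk tissue, fewer cells of a type and less RNA per cell cannot be told apart.

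None of the 7 subunits passed an adjusted p of 0.05 in any of the 4 comparisons made, or in the joint test of any difference among the 4 groups (edgeR quasi-likelihood test, Benjamini-Hochberg over 11750 genes). Group means of a subunit differed by at most 1.32-fold, for Gabrb2. The clearest pattern was that of Gabrd, which was higher in all 3 responders than in all 9 other libraries, as were 50 (0.426%) of all genes tested. Its log2 fold change for responders against FSL vehicle was 0.33. Over 22 alternative fits it ran from 0.13 to 0.44, with an unadjusted p under 0.05 in 18 and an adjusted p of at least 0.0837. The lowest value, 0.13 (unadjusted p = 0.374), was with the mean of meningeal markers as a covariate. That mean itself differed between the groups (2.07 to 3.40 log2 CPM in responders, 3.04 to 6.26 in FSL vehicle), so the 2 cannot be told apart. The other 6 subunits showed no separation of groups, and in Gabra3, Gabra5 and Gabrb2 the spread between libraries reached 2.06-fold to 2.30-fold.

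**Figure D1:**
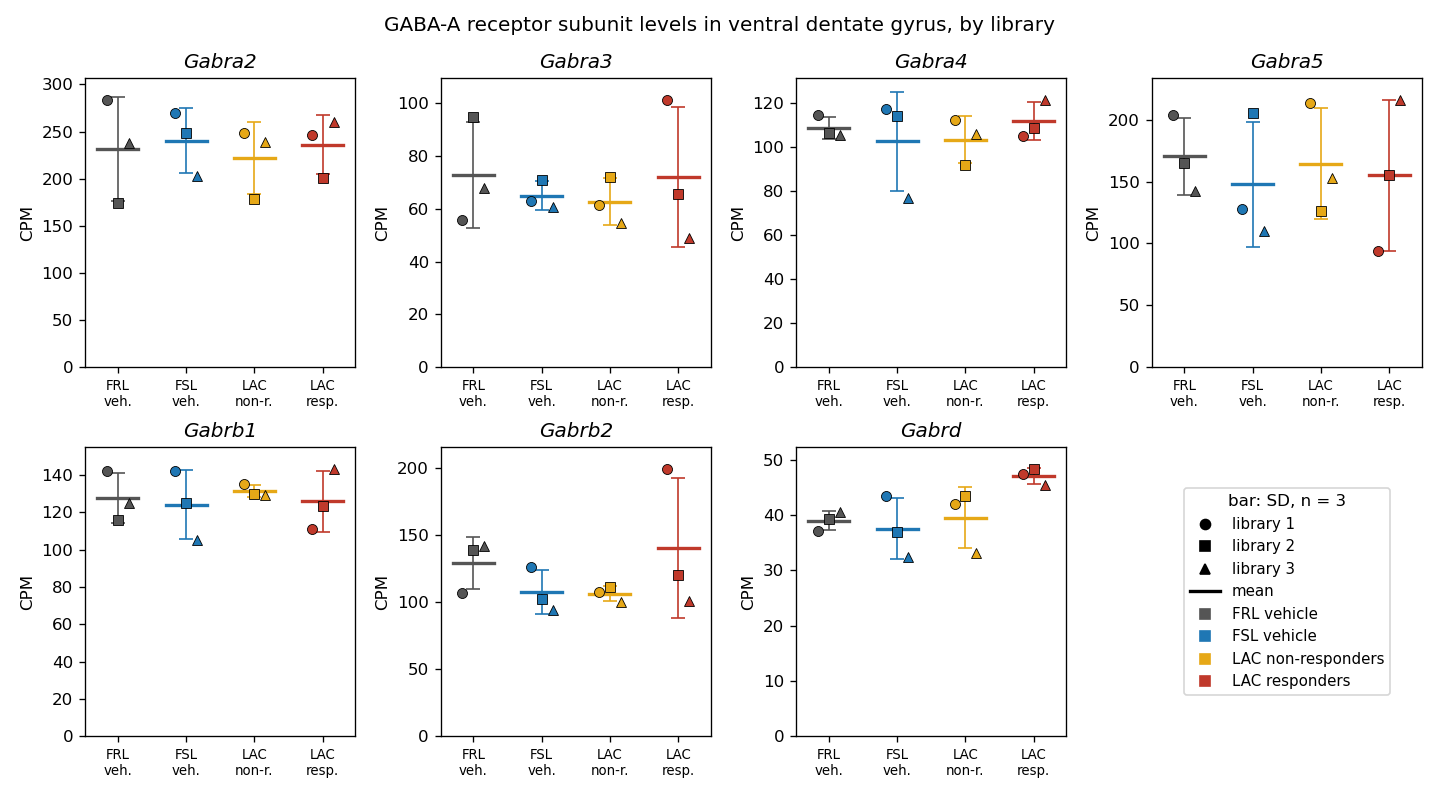
Level of each subunit gene in CPM (vertical axes, from 0) in the 4 groups, with 1 point per library, the mean as a bar and the SD as a whisker (n = 3). Responders lie above all other libraries in the Gabrd panel, with 45.4 CPM as the lowest responder, and the groups overlap in the other panels.

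Among the alpha subunits, Gabra2 encodes a subunit found in much of the hippocampus, also on the axon initial segment of principal cells. It stood at 284, 174 and 238 CPM in FRL vehicle 1, 2 and 3 and at 270, 248 and 203 CPM in FSL vehicle. The LAC groups had 249, 179 and 238 CPM in non-responders and 246, 201 and 260 CPM in responders. All groups overlapped, and the means from 222 ± 38.0 CPM in non-responders to 240 ± 34.3 CPM in FSL vehicle (SD, n = 3) differed by less than 1 SD.

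Gabra3 encodes a subunit more typical of cortex, amygdala and brainstem monoamine neurons than of the hippocampus. It stood at 55.6, 94.7 and 67.6 CPM in FRL vehicle and at 63.0, 70.9 and 60.8 CPM in FSL vehicle. Non-responders had 61.4, 72.0 and 54.4 CPM and responders 101, 65.7 and 49.0 CPM. The highest libraries were responder 1 and FRL vehicle 2, the same libraries in which Prox1 was low. Responders therefore held both the highest and the lowest of the 12 values, and the response groups could not be parted by this gene. The log2 difference of responders from FSL vehicle was 0.15 ± 0.25 (SE), and it was -0.18 without responder 1.

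Gabra4 encodes the alpha subunit that pairs with delta in granule cells. It stood at 115, 106 and 106 CPM in FRL vehicle and at 117, 114 and 76.9 CPM in FSL vehicle. Non-responders had 112, 91.8 and 106 CPM and responders 105, 109 and 121 CPM. Only FSL vehicle 3, the library highest in meningeal markers, lay well below the others.

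Gabra5 encodes a subunit abundant in hippocampal pyramidal cells, where it takes part in tonic inhibition. It was the most variable of the 7, with a coefficient of variation of 26.3% over the 12 libraries. It stood at 204, 165 and 142 CPM in FRL vehicle and at 128, 205 and 110 CPM in FSL vehicle. Non-responders had 214, 126 and 153 CPM and responders 94.1, 155 and 216 CPM. Its lowest and highest libraries, responder 1 and responder 3, belong to the same group.

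Of the beta subunits, Gabrb1 was the steadiest member, with a coefficient of variation of 9.73%. It stood at 142, 116 and 125 CPM in FRL vehicle and at 142, 125 and 105 CPM in FSL vehicle. Non-responders had 135, 129 and 129 CPM and responders 111, 124 and 143 CPM. Gabrb2, a beta subunit widespread in the adult brain, stood at 107, 139 and 142 CPM in FRL vehicle and at 126, 102 and 94.5 CPM in FSL vehicle. Non-responders had 107, 112 and 100.5 CPM and responders 200, 120 and 101 CPM. Responder 1 was well above every other library, the next highest being 142 CPM.

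The balance of these 2 beta genes can be followed within each library, since transcript length cancels between libraries. The ratio of Gabrb1 to Gabrb2 counts was 0.555 in responder 1, 0.830 in FRL vehicle 2 and 0.877 in FRL vehicle 3. In the other 9 libraries Gabrb1 had the larger count, with ratios from 1.03 in responder 2 to 1.42 in responder 3. Their upstream sequences are shown because these paralogs carry the same GC palindrome close to the start and yet differed in their levels across libraries. In the RefSeq table (GRCr8), which held upstream sequence for 6 of the 7 members, the longest run shared by any 2 members was 11 bases, in the pair Gabrb1 and Gabrb2 and also in Gabra4 and Gabrd. The 120 bases before each start site follow, 5′ to 3′ on the gene's strand, with the palindrome GCGCATGCGC, which resembles the motif of the factor NRF1 and reads alike on both strands, in capitals.
Gabrb1 (chr14:36902894-36903013, minus strand): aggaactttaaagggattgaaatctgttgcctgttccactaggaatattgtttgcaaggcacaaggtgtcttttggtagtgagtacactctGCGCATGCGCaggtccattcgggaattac
Gabrb2 (chr10:27439673-27439792, plus strand): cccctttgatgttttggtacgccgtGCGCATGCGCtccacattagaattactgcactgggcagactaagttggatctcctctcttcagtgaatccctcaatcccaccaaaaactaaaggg
The palindrome began 29 bases before the start in Gabrb1 and 95 before it in Gabrb2, and of the 6 members with sequence only these had a match. It is the self-complementary core of their shared run, so it was chosen for being shared. It was found in 0.852% of 33469 windows of the same 300-base length. A match of letters is a description and shows no binding.

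Gabrd encodes the delta subunit. It stood at 37.1, 39.3 and 40.5 CPM in FRL vehicle and at 43.3, 36.9 and 32.3 CPM in FSL vehicle. Non-responders had 42.0, 43.4 and 33.2 CPM and responders 47.4, 48.3 and 45.4 CPM. All 3 responders exceeded all 3 libraries of each other group. The means were 47.0 ± 1.53 CPM in responders, 39.5 ± 5.51 CPM in non-responders, 37.5 ± 5.53 CPM in FSL vehicle and 39.0 ± 1.77 CPM in FRL vehicle (SD, n = 3 each).

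Gabra4 and Gabrd are partners in the extrasynaptic receptor. Over the 12 libraries their levels had a Pearson r of 0.43 and a Spearman rho of 0.17. Their coefficients of variation were 11.3% for Gabra4 and 12.7% for Gabrd. The ratio of Gabrd to Gabra4 counts ran from 0.313 in non-responder 3 to 0.473 in non-responder 2, and the responders at 0.451, 0.445 and 0.373 lay inside that range. Over 300 bases, 250 before and 50 after the start, both were GC-rich, with 70.7% G and C in Gabra4 and 73.7% in Gabrd. Gabra5 was higher still at 76.3%, and the other members with sequence ran from 39.3% in Gabra3 to 49.3% in Gabrb1. The 120 bases before the start sites are shown to compare the 2, with matches to GCGNGGGCG, the core motif of EGR factors, in capitals.
Gabra4 (chr14:36944627-36944746, plus strand): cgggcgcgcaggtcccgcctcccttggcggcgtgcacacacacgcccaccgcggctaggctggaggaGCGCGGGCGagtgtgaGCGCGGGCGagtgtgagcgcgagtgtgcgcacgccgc
Gabrd (chr5:171252710-171252829, minus strand): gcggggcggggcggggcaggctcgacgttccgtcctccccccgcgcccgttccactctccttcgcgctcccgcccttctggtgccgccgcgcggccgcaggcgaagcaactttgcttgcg
Gabra4 held 2 matches on the gene's strand, beginning 53 and 37 bases before the start. No other of the 6 members with sequence held one when both strands of the 300 bases were searched, and Gabra2 could not be searched. The motif was found in 4.98% of all windows of that length. The cyclic AMP response element TGACGTCA was found in none of these 6 members, and in 1.83% of all windows. None of these 6 members held both of the 2 motifs shown.

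The comparison of FSL vehicle with FRL vehicle asked how the lines differ without treatment. Of the 7 subunits 0 passed the threshold, against 0.0681% of all genes tested, and 0 had an unadjusted p under 0.05, against 13.9% of all genes. Gabrb2 had the largest difference, lower in FSL vehicle by a log2 fold change of -0.27 ± 0.22 (95% interval -0.76 to 0.22; adjusted p = 0.634). Gabra5 had -0.21 ± 0.32, Gabra3 -0.16 ± 0.25 and Gabra4 -0.08 ± 0.14. Gabrd had -0.06 ± 0.12, Gabrb1 -0.04 ± 0.12 and Gabra2 0.05 ± 0.19. For the 3 most precise, Gabra4, Gabrb1 and Gabrd, the intervals ran from 0.759-fold to 1.17-fold at the widest, and for Gabra5 from 0.533-fold to 1.41-fold. The 7 overlapped between the lines, where 13.8% of all genes did not. The members' median was -0.08, against -0.01 for all genes tested.

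The comparison of non-responders with FSL vehicle asked what accompanied LAC where no response was recorded. Again 0 of 7 passed, as did 0% of all genes tested. An unadjusted p under 0.05 was reached by 0 of 7, against 4.21% of all genes, and DESeq2 called 0 members and 2 genes in all. Log2 fold changes were 0.15 ± 0.32 for Gabra5, -0.11 ± 0.19 for Gabra2, 0.08 ± 0.12 for Gabrb1 and 0.08 ± 0.12 for Gabrd. They were -0.05 ± 0.25 for Gabra3, -0.01 ± 0.22 for Gabrb2 and 0.01 ± 0.14 for Gabra4, with adjusted p of at least 0.986 for each of the 7. With non-responder 1, FSL vehicle 1 and FSL vehicle 3 left out, the 3 with high choroid plexus sums, Gabra5 had -0.55 ± 0.42, and without non-responder 1 alone -0.081 ± 0.34. The median was 0.01, against -0.00394 for all genes, and 0 of 7 had groups that did not overlap, against 7.80% of all genes.

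The comparison of responders with FSL vehicle asked what accompanied a response. Gabrd was 1.25-fold higher in responders (log2 fold change 0.33 ± 0.12, 95% interval 0.06 to 0.59) with an unadjusted p of 0.0204 and an adjusted p of 0.298, so it did not pass. It was the 1 member of 7 with an unadjusted p under 0.05 (13.8% of all genes, 4.61% higher in responders) and the 1 with no overlap between the groups (12.5%, 6.37% higher). Gabrb2 had 0.38 ± 0.22 (adjusted p = 0.468), and 0.04 ± 0.15 without responder 1. Gabra4 had 0.12 ± 0.14, Gabra5 0.07 ± 0.32, Gabrb1 0.02 ± 0.12 and Gabra2 -0.03 ± 0.19. The members' median was 0.12, against 0.01 for all genes. Over all genes 0% passed by edgeR and DESeq2 called 181 genes, 0 of them members.

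The summed meningeal markers had their lowest range in responders, where Gabrd was highest. With their mean as a covariate the log2 fold change of Gabrd was 0.13 ± 0.14 (unadjusted p = 0.374), and without FSL vehicle 3 it was 0.23 ± 0.12 (unadjusted p = 0.0924). Over the 12 libraries Gabrd and the meningeal mean had a Pearson r of -0.73 (permutation p = 0.00640, adjusted 0.0488) and a Spearman rho of -0.64 (permutation p = 0.0303, adjusted 0.105). Without FSL vehicle 2 and 3, the libraries farthest from the median in these markers, r was -0.51 (permutation p = 0.127, adjusted 0.348). The adjusted p was thus no longer under 0.05. With 10 libraries in place of 12 the test also has less power, so it cannot show that the call rests on those libraries. For Gabra4 and the meningeal mean r was -0.74 (permutation p = 0.00956, adjusted 0.0526) and rho -0.50 (permutation p = 0.105, adjusted 0.247), with r = -0.65 without the same libraries (permutation p = 0.0402, adjusted 0.222). The part of surrounding tissue in the Gabrd difference was not tested further. Without responder 1, low in Prox1, the value was 0.32 ± 0.14 (unadjusted p = 0.0433). Without FSL vehicle 1 it was 0.44 ± 0.12 (adjusted p = 0.0837 by edgeR), and 349 genes in all then passed.

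**Figure D2:**
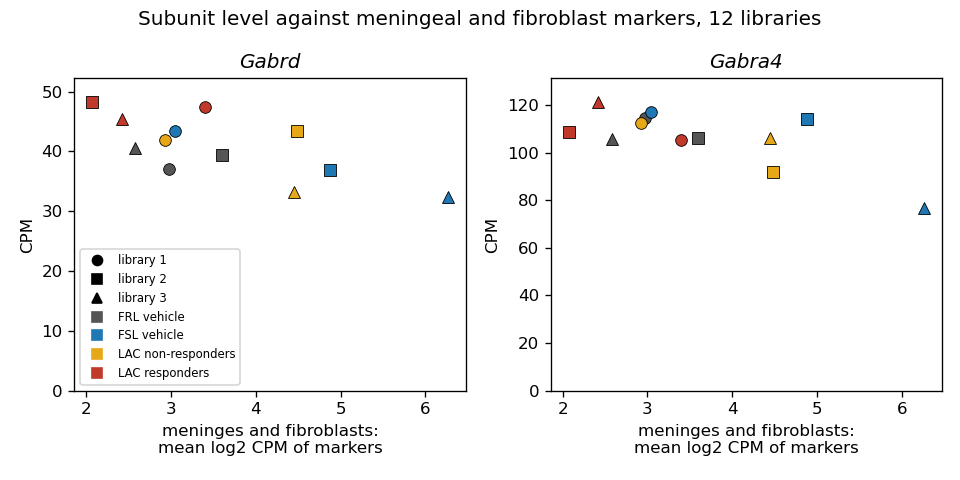
Level of Gabrd and Gabra4 in CPM (vertical axes, from 0) against the mean log2 CPM of meningeal and fibroblast markers (horizontal axes), with 1 point per library, coloured by group. FSL vehicle 3, at 6.26 on the horizontal axis, is the lowest of the 12 in Gabra4 (76.9 CPM) and Gabrd (32.3 CPM).

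The comparison of responders with non-responders sets the LAC groups against each other directly, since both earlier LAC comparisons share the FSL vehicle libraries. Gabrd was 1.19-fold higher in responders (log2 fold change 0.25 ± 0.12, unadjusted p = 0.0622, adjusted p = 0.992), with no overlap between the groups, as in 11.3% of all genes (5.76% higher). It was 0.14 ± 0.11 without non-responder 3 (unadjusted p = 0.254) and 0.12 ± 0.12 with the meningeal covariate (unadjusted p = 0.331). Gabrb2 had 0.40 ± 0.22 (adjusted p = 0.992), and 0.06 ± 0.15 without responder 1. Gabra3 had 0.20 ± 0.25, Gabra4 0.11 ± 0.14, Gabra2 0.09 ± 0.19, Gabra5 -0.09 ± 0.32 and Gabrb1 -0.06 ± 0.12. Of the 7 members 0 passed and 0 had an unadjusted p under 0.05, against 0% and 3.14% of all genes, and DESeq2 called 0 genes. The members' median was 0.11, against 0.000972 for all genes.

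In the joint test of the 4 groups, Gabrd had the smallest p of the 7 (unadjusted p = 0.0784, adjusted p = 0.610), followed by Gabrb2 (adjusted p = 0.771), and the other 5 had adjusted p of 0.950 to 0.985. This test called 0.0255% of all genes, and an unadjusted p under 0.05 was reached by 0 members and by 9.02% of all genes.

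**Figure D3:**
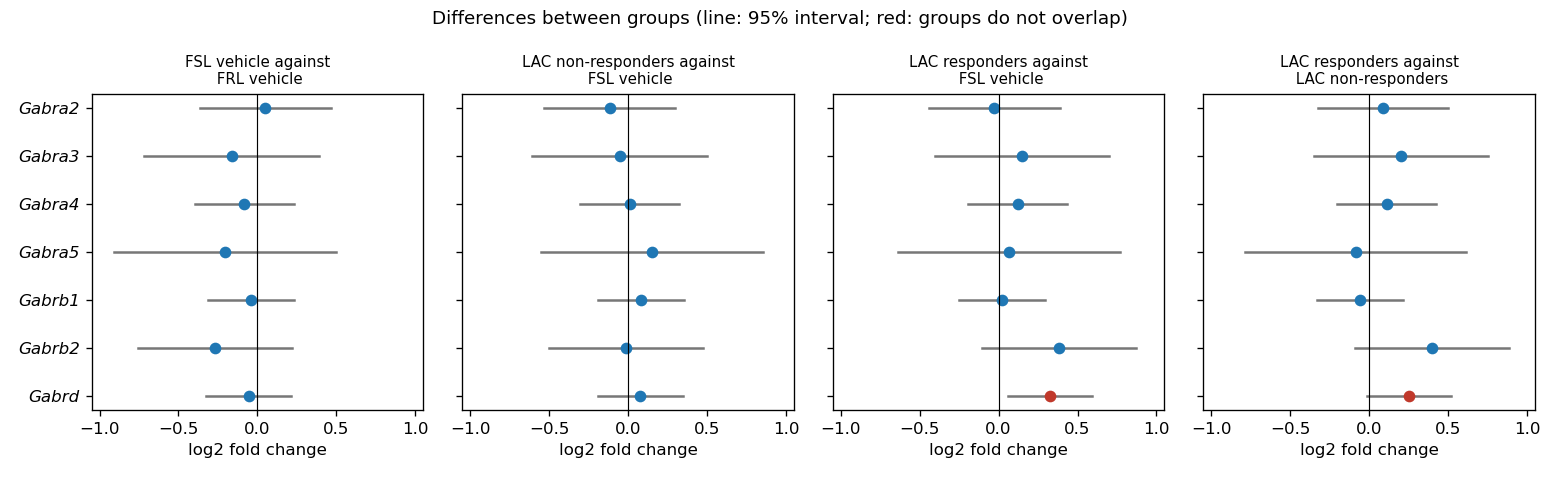
Log2 fold change of each subunit (horizontal axes) in the 4 comparisons, with the 95% interval as a line. Red points mark the 2 comparisons, both of Gabrd in responders, in which the groups do not overlap, and every interval but that of Gabrd in responders against FSL vehicle includes 0.

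The median coefficient of variation of the 7 over the 12 libraries was 15.3%, against 9.36% for the 4356 genes of the same range of mean CPM, 40.8 to 232. The mean of the granule neuron markers (7 of 10 listed were in the files) stood apart in FRL vehicle 2 (4.85 log2 CPM) and responder 1 (4.67), against 5.75 to 6.36 in the other 10 libraries. Because these libraries form a cluster of their own, correlations with granule markers are given mainly over the other 10. Over all 12, r was -0.90 for Gabra3 (permutation p = 3.80e-04, adjusted 0.00836), with rho = -0.66. It was -0.71 for Gabrb2 (permutation p = 0.0197, adjusted 0.0811), with rho = -0.24. For Gabrb1 it was 0.76 (permutation p = 0.00399, adjusted 0.0439), and the other members had -0.09 to 0.49. In the 10 libraries, Gabrb1 was higher where the markers were higher (r = 0.90, permutation p = 2.30e-04, adjusted 0.0152; rho = 0.81, permutation p = 0.00692, adjusted 0.152). Gabra4 had r = 0.74 (permutation p = 0.00720, adjusted 0.0792; rho = 0.77, permutation p = 0.0132, adjusted 0.153) and Gabra2 r = 0.64 (permutation p = 0.0511, adjusted 0.222; rho = 0.71, permutation p = 0.0279, adjusted 0.153). Gabra3 had r = -0.58 (permutation p = 0.0772, adjusted 0.243; rho = -0.42, permutation p = 0.234, adjusted 0.532) and Gabrb2 r = 0.16 (permutation p = 0.657, adjusted 0.885; rho = 0.28, permutation p = 0.426, adjusted 0.721). Gabra5 had r = 0.44 (permutation p = 0.205, adjusted 0.437; rho = 0.38, permutation p = 0.280, adjusted 0.578) and Gabrd r = 0.46 (permutation p = 0.176, adjusted 0.407; rho = 0.50, permutation p = 0.144, adjusted 0.364). Adjusted values are over a family of 66 relations, with the libraries permuted without regard to group. Of the marker lists, the family took only granule, CA3 and CA2, and meningeal markers. Other marker lists were also correlated with the members but not tested. Among them, over the 12 libraries, were Gabra4 with endothelium and pericytes (r = -0.83, rho = -0.48) and Gabra5 with thalamus (r = -0.79, rho = -0.65). Adjusted values near 0.05 therefore depend on the choice of family.

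**Figure D4:**
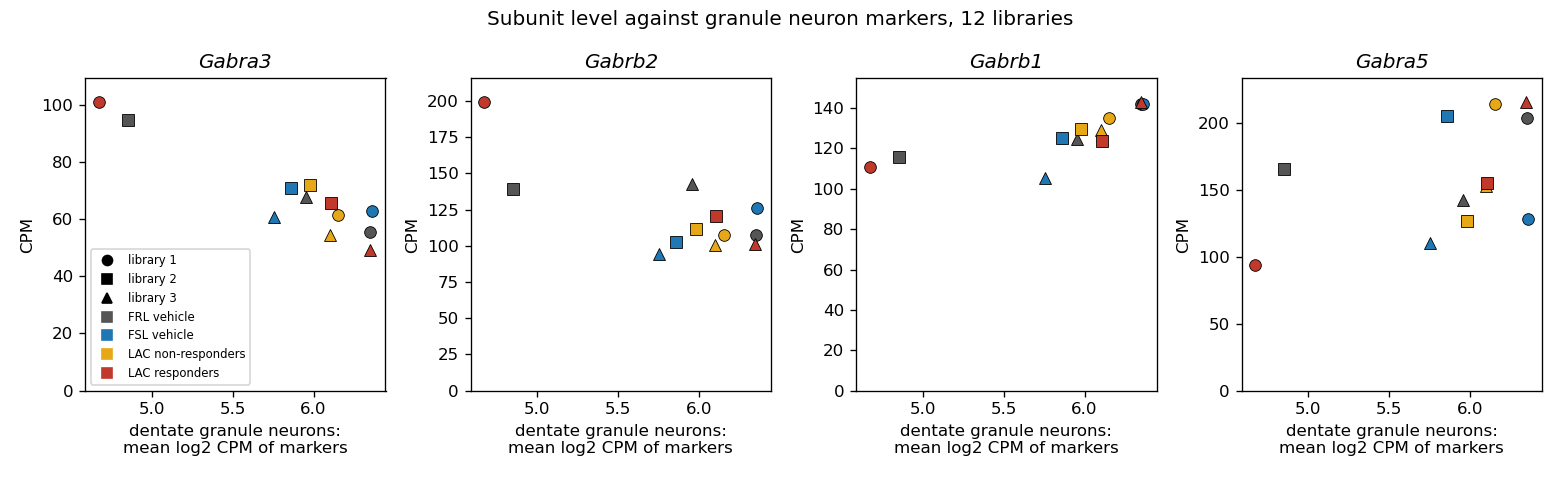
Level of Gabra3, Gabrb2, Gabrb1 and Gabra5 in CPM (vertical axes, from 0) against the mean log2 CPM of granule neuron markers (horizontal axes), with 1 point per library, coloured by group. The 2 libraries at the left, responder 1 (4.67) and FRL vehicle 2 (4.85), are the highest in Gabra3 (101 and 94.7 CPM).

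Among pairs of members the highest correlation over all libraries was that of Gabra3 and Gabrb2 (r = 0.80, permutation p = 0.00229, adjusted 0.0302; rho = 0.75, permutation p = 0.00717, adjusted 0.0647). Without FRL vehicle 3 and responder 1 r was 0.70 (permutation p = 0.0232, adjusted 0.153) and rho 0.71. The adjusted p was no longer under 0.05, but 10 libraries also give the test less power. Whether the call rests on the libraries left out was not tested. FRL vehicle 2, also low in granule markers, was kept in both values. Gabrb2 lies on rat chromosome 10 and Gabra3 on the X chromosome.

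With its direct neighbour on chromosome 14, Gabrb1, Gabra4 had r = 0.72 (permutation p = 0.00625, adjusted 0.0488; rho = 0.75, permutation p = 0.00695, adjusted 0.0647). In the 10 libraries without FSL vehicle 3 and responder 1, r was 0.52 (permutation p = 0.125, adjusted 0.348). The adjusted p was likewise no longer under 0.05 there, with less power. Gabra4 and Gabrd had r = 0.43 (permutation p = 0.171, adjusted 0.290; rho = 0.17, permutation p = 0.605, adjusted 0.726; r = -0.14 without FSL vehicle 3 and non-responder 3). The beta genes that share the palindrome, Gabrb1 and Gabrb2, had r = -0.34 (permutation p = 0.283, adjusted 0.440; rho = -0.25, permutation p = 0.429, adjusted 0.590; r = 0.04 without FRL vehicle 3 and responder 1). Gabra5 was higher where the mean of CA3 and CA2 markers was higher (r = 0.74, permutation p = 0.00665, adjusted 0.0488; rho = 0.70, permutation p = 0.0139, adjusted 0.0715). In the 10 libraries without non-responder 1 and responder 3, r was 0.59 (permutation p = 0.0726, adjusted 0.243). Here too the adjusted p was no longer under 0.05, with less power. The relation was not particular to Gabra5. Gabrb1 had r = 0.72 with these markers (permutation p = 0.00898, adjusted 0.0526; rho = 0.73) and Gabra3 had r = -0.69 (permutation p = 0.0129, adjusted 0.0655; rho = -0.64).

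**Figure D5:**
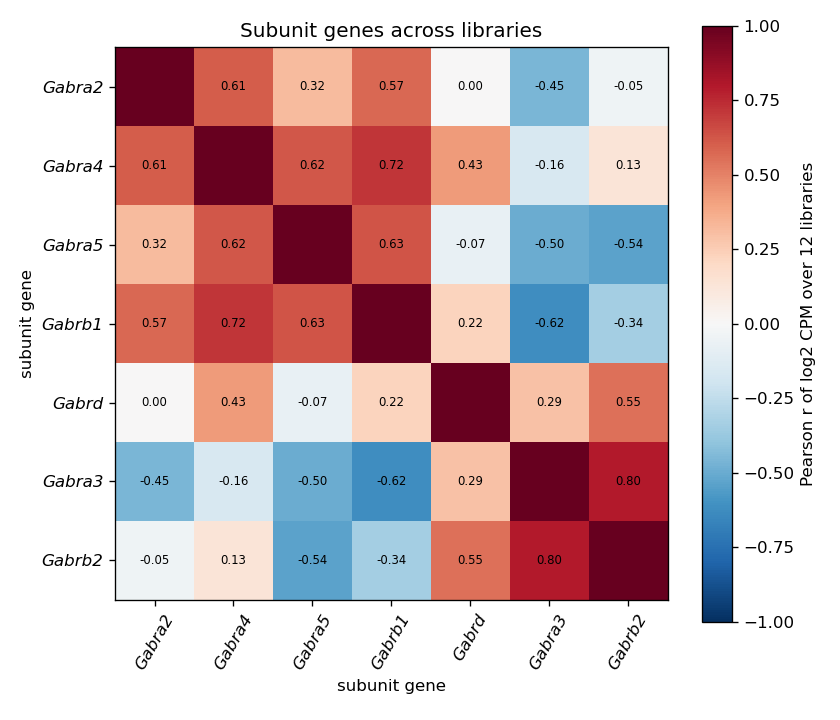
Pearson r of log2 CPM over the 12 libraries for each pair of the 7 subunit genes, with the value in each cell. Gabra3 and Gabrb2 have the highest value (0.80), and Gabra4 and Gabrb1 have 0.72.

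Among 9152 other genes with a mean of at least 10 CPM, those with the most similar pattern over the 12 libraries were picked as the 3 highest values of r, so they are a description without a test. They were Rasgef1c (r = 0.95), Pcdh11x (0.93) and Asic1 (0.93) for Gabra3, and Ncam2 (0.95), Cdh22 (0.95) and Cntn6 (0.94) for Gabrb2. They were Tfb2m (0.97), Neto1 (0.97) and Kcnt2 (0.94) for Gabra5, and Idh3g (0.94), Ncs1 (0.93) and Epn1 (0.92) for Gabra4. Gabrb1 was most like Rprml (0.91), Rnf112 (0.91) and Lzts3 (0.90). Gabra2 was most like Chrna7 (0.90), Jph4 (0.86) and Sstr3 (0.85), and Gabrd was most like Pde1b (0.87), Adarb1 (0.86) and Wdr75 (0.86).

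The other genes of GABA signalling were read from 5 lists: 12 further GABA-A subunits, receptor anchoring and traffic, GABA-B receptors, GABA synthesis, transport and breakdown, and chloride transporters. Several are also cell type markers, among them Gad2 and Slc32a1, which define interneurons, and Slc6a13, which is on the meningeal and fibroblast list. Of 51 genes listed, 49 were in the files and 44 passed the filter on low counts. None passed the threshold in any comparison (edgeR, Benjamini-Hochberg over all genes). An unadjusted p under 0.05 was reached by 11 of 44 for FSL vehicle against FRL vehicle (3 higher, 8 lower), where 13.9% of all genes did so. The count was 3 of 44 for non-responders (3 higher, 0 lower; 4.21% of all genes) and 12 of 44 for responders (9 higher, 3 lower; 13.8%), both against FSL vehicle. It was 1 of 44 for responders against non-responders (1 higher; 3.14%). The 3 higher for the lines and the 3 lower in responders against FSL vehicle were the same genes, Slc12a7, Slc6a12 and Slc6a13. In FSL vehicle 3, the library highest in meningeal markers, Slc6a12 stood at 19.3 CPM and Slc6a13 at 213 CPM. In the other libraries they reached at most 3.11 and 48.9 CPM, and the part of meningeal tissue in these counts was not tested. FSL vehicle 3 was the lowest of the 12 libraries for 21 of these 44 genes and for 4 of the 7 members (Gabra4, Gabrb1, Gabrb2 and Gabrd), against 21.1% of all genes tested.

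Of the 12 further subunits, 8 were tested and 0 passed in any comparison. Gphn, which encodes the scaffold gephyrin, had a log2 fold change of -0.10 ± 0.09 in FSL vehicle against FRL vehicle and 0.12 ± 0.09 in non-responders against FSL vehicle. In responders it had 0.16 ± 0.09 against FSL vehicle and 0.04 ± 0.09 against non-responders. Among the other genes of anchoring and traffic, Ubqln1, a ubiquitin-like protein that stabilises receptors, stood at 190, 180 and 184 CPM in FRL vehicle and 167, 156 and 150 CPM in FSL vehicle, with no overlap (-0.23 ± 0.07, adjusted p = 0.251). Against FSL vehicle it had 0.15 ± 0.07 in non-responders (adjusted p = 0.976) and 0.18 ± 0.07 in responders (adjusted p = 0.307), both with no overlap. Trak2, an adaptor for transport along microtubules, had the smallest p of the 44 in non-responders against FSL vehicle (393, 456 and 387 against 338, 345 and 291 CPM; 0.34 ± 0.11, adjusted p = 0.976). Trak2 also had -0.30 ± 0.11 in FSL vehicle against FRL vehicle (adjusted p = 0.273) and 0.30 ± 0.11 in responders against FSL vehicle (adjusted p = 0.282), both with no overlap. The 9 oligodendrocyte markers summed to 5148 to 7321 CPM in FRL vehicle and 4073 to 5665 CPM in FSL vehicle. They summed to 7031 to 11539 CPM in non-responders and 5582 to 10428 CPM in responders, and their part in the Trak2 differences was not tested. Lhfpl4, which links receptors to the synaptic adhesion protein neuroligin-2, had the smallest p in responders against non-responders (25.6, 23.3 and 21.2 against 18.6, 16.6 and 18.9 CPM; 0.37 ± 0.12, adjusted p = 0.992).

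In the genes for making and handling GABA, Slc32a1, the vesicular GABA transporter, stood at 40.5, 44.8 and 45.8 CPM in FRL vehicle and 35.1, 25.9 and 33.2 CPM in FSL vehicle, with no overlap (-0.48 ± 0.13, adjusted p = 0.238). Gad2, a GABA-synthesising enzyme, stood at 180, 142 and 163 CPM in responders and 137, 131 and 113 CPM in FSL vehicle, again with no overlap (0.35 ± 0.10, adjusted p = 0.266). The 12 interneuron markers, which include both genes, summed to 1198 to 1644 CPM in FRL vehicle, 961 to 1377 CPM in FSL vehicle and 1197 to 1381 CPM in responders. Of these 12 markers 1 is listed at 0 in every library, and the part of the markers in these differences was not tested. Among chloride transporters, Slc12a7 stood at 12.01, 29.7 and 48.2 CPM in FSL vehicle 1, 2 and 3, with 8.88, 10.4 and 6.47 CPM in FRL vehicle and 14.7, 5.33 and 5.94 CPM in responders. Its log2 fold changes were 1.80 ± 0.50 for the lines (adjusted p = 0.245) and -1.79 ± 0.49 for responders against FSL vehicle (adjusted p = 0.266). In FSL vehicle 1, 2 and 3 the meningeal marker means were 3.04, 4.88 and 6.26 log2 CPM. In non-responders, where Slc12a7 stood at 19.4, 12.3 and 12.7 CPM, they were 2.93, 4.49 and 4.45, and the part of these markers was not tested. Slc12a2, a chloride importer, had 0.43 ± 0.18 in non-responders against FSL vehicle (adjusted p = 0.976) and -0.32 ± 0.18 in responders against non-responders (adjusted p = 0.992).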

How the data were processed

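RNA was measured in 12 libraries of ventral dentate gyrus with a stranded, ribosomal-RNA-depleted kit and single reads of 100 bp (per the labels' protocols). The deposited files hold raw read counts per gene symbol, not normalized, with 5 summary lines. Per the submitters' processing notes the build was rn5 and the tools were edgeR 3.12.0, HTSeq 0.6.1, TopHat2 2.0.9, Trimmomatic 0.33 and FastQC 0.11.3. Neither annotation nor strand setting is stated there, and reads of a gene and an overlapping antisense gene cannot be told apart. Summary lines (reads outside genes 47.7% to 52.7%, several alignments 24.3% to 28.4%) stayed out of library sizes and tests. Here edgeR 4.0.16 in R 4.3.3 fitted all 12 libraries with TMM factors (0.975 to 1.04), the default expression filter (11750 genes) and a robust two-sided quasi-likelihood test, with 1 mean per group and a threshold of 0.05 after Benjamini-Hochberg adjustment over all genes. The SE is the log2 fold change divided by the root of its F statistic, and intervals are at 95%. The fit was tested on simulated data.

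The members and lists were chosen with earlier results of these data known. Named pathway genes were the 3 of smallest p in each comparison, with Gphn, and some further genes of the rule are not reported here. For correlations the log2 CPM had a prior count of 2, and 100000 permutations were drawn. Deviations from group means were correlated between libraries of the same replicate number. FSL vehicle and non-responders had 0.581, 0.212 and 0.426. In each other pair of groups some were negative, as in FRL vehicle and non-responders (0.187, 0.267 and -0.0115). Libraries of unlike replicate number were not compared, so whether libraries were paired was not tested, and the labels name no pairing. Alternatives were other scaling, no filter, DESeq2 1.42.0, fits of the compared groups, a replicate block, marker covariates and libraries left out. Coordinates and upstream sequences are from RefSeq on GRCr8, and no coordinate of rn5 was used.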

Additional observations from a re-analysis of the deposited data

How the results depend on the processing

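None of the 7 members passed the threshold under any of the 23 alternatives. Of 623 member values 71 changed sign and 31 moved by more than 1 SE, and no sign changed where the main value exceeded its SE. Every member had at least 231 counts per library, and what depth and group size each take from the precision was not tested. The cause of the changes below was not tested.

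Over all genes, the lines differed in 8 genes in the main fit, and in 168 by DESeq2, 2 with the groups compared alone, 3 with the meningeal covariate, 17 when the 3 libraries with high choroid plexus markers were left out, 2 without the 2 libraries low in Prox1, and 2 to 271 with 1 library left out. Non-responders against FSL vehicle gave 0, and 2 by DESeq2. Responders against FSL vehicle gave 0, and 181 by DESeq2, 36 without the choroid plexus libraries, and 0 to 349 with 1 library left out. Responders against non-responders gave 0, and 11 without the choroid plexus libraries. The joint test gave 3, and 5 with median-of-ratios factors, 6 without a filter, 184 by DESeq2, 5 with the meningeal and 5 with the granule covariate, 27 without the choroid plexus libraries, and 2 to 98 with 1 library left out. The counts of 271, 349 and 98 were without FSL vehicle 1. The libraries high in choroid plexus markers were FSL vehicle 1, FSL vehicle 3 and non-responder 1. Gabrd with 1 library left out had 0.23 to 0.44 in responders against FSL vehicle and 0.14 to 0.32 against non-responders.

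With a replicate block the lines differed in 4 genes and the joint test gave 2. The block changed no call of a member: Gabrd in responders had 0.33 against FSL vehicle (unadjusted p = 0.0158) and 0.26 against non-responders (unadjusted p = 0.0476). With the block fitted to FSL vehicle and non-responders alone, Gabrd had 0.07 in non-responders.

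The log2 fold changes that changed sign follow. With library size only, the lines had Gabrb1 0.0087. Non-responders against FSL vehicle then had Gabra4 -0.023. For responders and FSL vehicle the values were Gabrb1 -0.020. With the meningeal covariate, the lines had Gabra4 0.14, Gabra5 0.11, Gabrb1 0.15 and Gabrd 0.10. Non-responders against FSL vehicle then had Gabra3 0.032, Gabra4 -0.088, Gabra5 -0.022 and Gabrb1 -0.0032. For responders and FSL vehicle the values were Gabra4 -0.17, Gabra5 -0.35 and Gabrb1 -0.23. Responders against non-responders then had Gabra2 -0.068 and Gabra4 -0.077. With the granule covariate, the lines had Gabra3 0.012. Non-responders against FSL vehicle then had Gabrb2 0.0025. For responders and FSL vehicle the values were Gabra2 0.044 and Gabra3 -0.054. Responders against non-responders then had Gabra3 -0.041, Gabra5 0.0034 and Gabrb1 0.012. Without the choroid plexus libraries, the lines had Gabra4 0.073 and Gabra5 0.27. Non-responders against FSL vehicle then had Gabra4 -0.20, Gabra5 -0.55 and Gabrb2 0.053. For responders and FSL vehicle the values were Gabra4 -0.035 and Gabra5 -0.41. Responders against non-responders then had Gabra5 0.14. Without the libraries low in Prox1, the lines had Gabra2 -0.12 and Gabra3 0.080. For responders and FSL vehicle the values were Gabra3 -0.18. Responders against non-responders then had Gabra3 -0.12, Gabra5 0.18 and Gabrb1 0.027.

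With 1 library left out, the lines had Gabra2 -0.12 to 0.23, Gabra3 -0.31 to 0.079, Gabra4 -0.19 to 0.092, Gabrb1 -0.15 to 0.070 and Gabrd -0.17 to 0.045. Non-responders against FSL vehicle had Gabra2 -0.22 to 0.016, Gabra3 -0.17 to 0.034, Gabra4 -0.16 to 0.12, Gabra5 -0.081 to 0.47, Gabrb1 -0.022 to 0.19, Gabrb2 -0.10 to 0.11 and Gabrd -0.015 to 0.19. Responders against FSL vehicle had Gabra2 -0.14 to 0.067, Gabra3 -0.18 to 0.35, Gabra4 -0.054 to 0.23, Gabra5 -0.26 to 0.38 and Gabrb1 -0.094 to 0.13. Responders against non-responders had Gabra2 -0.051 to 0.18, Gabra3 -0.12 to 0.40, Gabra5 -0.41 to 0.17 and Gabrb1 -0.17 to 0.025.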
